A study of Mus musculus with 14 samples.

Results

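The genes examined here encode 10 components of fibroblast growth factor (FGF) and hepatocyte growth factor (HGF) signaling: the ligands Fgf1, Fgf2, Fgf6, Fgf7 and Hgf, the receptors Fgfr1, Fgfr4 and Met, and the inhibitors Spry1 and Spry2. They were chosen by name as mitogens, receptors and regulators of muscle stem cells (MuSCs), and a peak was counted for a gene when the peak lists gave it that gene name. Of 10303 listed peaks, 15 carried one of these names, and they formed 6 of 6686 regions in the series (4488 with MyoD and 2198 with MyoG). Wild-type mice carried Pax7-Cre(ERT2), a recombinase driven by a MuSC gene, and a mito-Dendra2 allele that it switches on, so that MuSCs and their progeny were fluorescent. All animals received tamoxifen (75 mg/kg, once per day for 5 days), and the tibialis anterior muscle was then injected with 50 µL of 1.2% BaCl2 as an injury or, on the opposite side, with saline. At 2 days after injury, activated cells (ASCs: CD34-, Dendra2+, DAPI-) were sorted from injured muscle and quiescent cells (QSCs: CD34+, Dendra2+, DAPI-) from uninjured muscle. DNA bound by the myogenic transcription factors MyoD or MyoG was then sequenced (ChIP-seq) in 3 replicates for each of the groups ASC MyoD, QSC MyoD, ASC MyoG and QSC MyoG. Whether a library pooled animals, and the age of the mice, are not given in the sources used here, and the ASC sort takes Dendra2+ progeny of MuSCs together with MuSCs.

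FGF ligands act through receptor tyrosine kinases, with heparan sulfate proteoglycans as co-receptors, and the signal passes through adaptors and Ras to the MAP kinases. HGF is stored in the matrix around muscle fibers, is released and processed upon damage, and signals through the receptor tyrosine kinase Met. Both pathways promote entry of MuSCs into the cell cycle and delay differentiation, and Sprouty proteins are feedback inhibitors of receptor tyrosine kinase signaling, with Spry1 known for its part in the return of MuSCs to quiescence. MyoD and MyoG bind the E-box, a short DNA motif with the letters CANNTG, and MyoD has a preference for CAGCTG and for CACCTG with its reverse complement CAGGTG.

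Promoter sequences were examined in place of the bases of the peaks, which could not be read without a genome sequence. They are the 250 bases before an annotated start, from RefSeq (GRCm38.p6, of which mm10 is the UCSC name), written 5′ to 3′ on the gene's strand with each CANNTG in capitals. Those of Fgfr4 (chr13:55152568-55152817, plus strand) and Met (chr6:17463707-17463956, plus strand) are shown because these receptors had the highest-scoring MyoD regions, none of which touched these windows. Those of Chrnb1 (chr11:69795938-69796187, minus strand) and Akt2 (chr7:27607086-27607335, plus strand) are shown because ASC MyoD regions that the lists gave to the pathway genes Fgf11 and Akt2 covered them, with a peak of 3 libraries at Chrnb1 and of 1 library at Akt2.
Fgfr4: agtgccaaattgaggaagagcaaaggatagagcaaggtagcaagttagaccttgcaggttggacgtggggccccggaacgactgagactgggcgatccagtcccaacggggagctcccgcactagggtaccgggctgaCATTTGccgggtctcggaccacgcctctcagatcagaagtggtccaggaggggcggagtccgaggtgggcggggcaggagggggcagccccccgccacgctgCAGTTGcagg
Met: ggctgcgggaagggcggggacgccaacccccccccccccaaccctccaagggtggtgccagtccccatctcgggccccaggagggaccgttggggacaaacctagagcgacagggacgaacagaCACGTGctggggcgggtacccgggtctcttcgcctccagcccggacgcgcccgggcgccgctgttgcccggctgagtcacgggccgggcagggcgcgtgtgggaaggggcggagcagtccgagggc
Chrnb1: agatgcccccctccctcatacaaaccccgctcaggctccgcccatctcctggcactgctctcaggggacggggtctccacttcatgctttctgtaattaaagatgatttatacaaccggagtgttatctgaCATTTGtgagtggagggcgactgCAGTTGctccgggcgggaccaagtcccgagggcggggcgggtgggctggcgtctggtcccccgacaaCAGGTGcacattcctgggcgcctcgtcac
Akt2: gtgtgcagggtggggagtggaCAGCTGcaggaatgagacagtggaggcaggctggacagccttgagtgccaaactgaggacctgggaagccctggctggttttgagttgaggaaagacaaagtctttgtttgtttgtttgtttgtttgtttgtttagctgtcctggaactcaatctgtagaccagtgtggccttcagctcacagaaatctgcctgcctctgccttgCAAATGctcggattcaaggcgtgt

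Where the promoter windows of the members held E-boxes, these were of other letters than the ones MyoD prefers. Of the 10 members, 8 had a window (9 windows, with a pair for Hgf), and 7 windows held at least 1 CANNTG. The motifs that MyoD prefers were in 0 of the 9. The Fgfr4 window held CATTTG at 112 bases and CAGTTG at 10 bases before the start, and the Met window held CACGTG at 126 bases before it. Of the covered windows printed above, Chrnb1 held CAGGTG at 29 bases before the start, and Akt2 held CAGCTG at 229 bases before it. The windows of Htra1 and Uchl4 are not shown. They were touched by ASC MyoD regions of 1 library each, given to Fgfr2 and Map2k1. The printed windows are thus examples and no contrast with the members. Among all 32851 promoter windows, 66.2% held CANNTG, 13.0% CAGCTG and 17.2% CACCTG or CAGGTG (each motif read on both strands, and CANNTG includes the others). Among the 168 windows that overlapped a region with peaks in at least 2 ASC MyoD libraries, these shares were 81.5%, 37.5% and 31.0%. A match is a description of letters only.

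The lists name the part of the gene at which each peak lies and give a score, which is minus 10 times the log10 of the peak caller's p-value. The lowest score was 50.0 (a p-value of 1e-05). Lists held 2262 to 2652 peaks in ASC MyoD, 139 to 174 in QSC MyoD, 605 to 916 in ASC MyoG and 120 to 167 in QSC MyoG. Peak lists carry no read counts, so the depth of each library is unknown, and neither intervals nor detection limits could be set. Of 8 genes known as targets of MyoD in muscle (Myog, Mef2a, Chrna1, Ckm, Mymk, Cdh15, Acta1 and Des), 5 had a peak in at least 2 ASC MyoD libraries and 0 had a peak in a QSC library. Peak lists hold no expression, so the sorted cells could not be checked against MuSC markers.

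To ask whether MyoD and MyoG are found at growth factor signaling genes before and after MuSC activation, the peaks of each antibody were joined into regions wherever they overlapped. All 15 peaks came from the ASC MyoD libraries, with 5 peaks in each, and both receptors of highest score, Fgfr4 and Met, were recovered in all 3. Fgf1 was also recovered in 3 of 3 libraries, Fgf2 in 2 of 3 and Fgfr1 in 1 of 3, all with scores near the lowest listed. Fgf6, Fgf7, Hgf, Spry1 and Spry2 had no peak in any of the 12 libraries and count as not bound. No QSC MyoD, ASC MyoG or QSC MyoG library had a peak at any member. A state with fewer cells that carry the factor and a state with less factor on the DNA of each cell cannot be told apart in these pooled cells, and the QSC and MyoG lists are shorter throughout, whose part in the missing peaks was not tested.

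**Figure D1:**
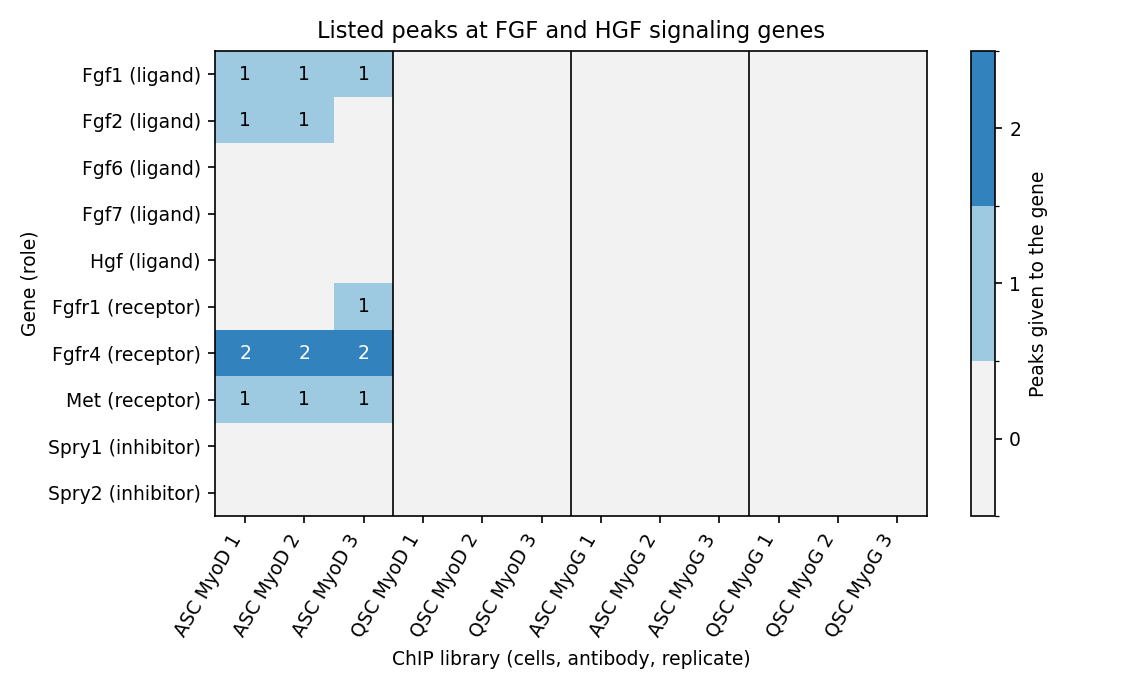
Number of listed peaks given to each of the 10 genes (rows, with their role) in each of the 12 ChIP libraries (columns, grouped by cells and antibody). Peaks appear for 5 genes in the ASC MyoD columns, with 2 per library at Fgfr4, and the other 9 columns are empty.

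A region was called ASC-specific when it had a peak in at least 2 of the 3 ASC libraries and in none of the 3 QSC libraries of the same antibody. For MyoD, 5 of the 6 member regions met this rule, against 44.0% of all 4488 MyoD regions, and 4 had a peak in all 3 ASC libraries, against 24.5%. These 4 regions are the ones in which the ASC and QSC libraries did not overlap. For each, the share of libraries with a peak was 1 in ASCs and 0 in QSCs, with an exact two-sided permutation p-value of 0.1, the smallest that 3 libraries against 3 can give, and of 0.404 after Benjamini-Hochberg adjustment over all MyoD regions. The Fgf2 region (difference in share 0.667, exact permutation p-value 0.4, adjusted 0.890) and the Fgfr1 region (0.333, exact permutation p-value 1, adjusted 1) were less regular. No region could thus pass 0.05 in this test, which uses only the presence of a peak in each library. The paper compared bound peaks between QSCs and ASCs by its own analysis. It reports genes bound by MyoD or MyoG specifically in ASCs at a false discovery rate below 0.05. QSC-specific MyoD regions, ASC-specific MyoG regions and QSC-specific MyoG regions numbered 0 among the members, where 0.780%, 9.42% and 0.136% of all regions of that antibody were called. In both MyoG comparisons the members had 0 regions to test.

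Counted by gene, 4 of the 10 members (Fgf1, Fgf2, Fgfr4 and Met) had an ASC-specific MyoD region, against 5.92% of 21887 RefSeq protein-coding genes. With a region in 3 of 3 libraries the members numbered 3, against 3.56%, and with a peak in at least 1 ASC MyoD library they numbered 5, against 10.7%. Peaks of the other 3 groups were given to 0 members and to 5.11% of protein-coding genes. The members are few and were chosen with earlier results of these data known, so these shares only describe the list. Long genes were given such regions more often, and the part of gene length in the count of members was not tested. By length of the annotated gene, 14.5% of protein-coding genes over 50 kb had an ASC-specific MyoD region, 4.78% of those from 10 to 50 kb and 1.84% of those under 10 kb. The 6 members over 50 kb included 3 with such a region (Fgf1, Fgf2 and Met) and 3 without (Fgf7, Hgf and Fgfr1). Fgfr4, at 15.9 kb, was the member between 10 and 50 kb, while Spry1, Spry2 and Fgf6, all under 10 kb, had none.

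Among the receptors, Fgfr4 (ENSMUSG00000005320, chromosome 13), an FGF receptor of myogenic cells, had a pair of MyoD regions at its 3′ end. The first (55168694 to 55169828, mm10) was annotated as 3′ UTR and scored 148 in ASC MyoD replicate 1, 279 in replicate 2 and 144 in replicate 3 (mean 190 ± 76.8, SD, n = 3). The second (55171122 to 55172544) was annotated as distal intergenic and scored 329, 219 and 261 in replicates 1, 2 and 3 (mean 270 ± 55.4). The second region scored above the first in replicates 1 and 3 and below it in replicate 2, so their order was not the same in all libraries. The RefSeq gene ends at 55168759, so that 1069 of the 1135 bp of the first region lay beyond this end, and the second region began 2363 bp past it. Their centers lay 16.4 and 19.0 kb downstream of the RefSeq start. The gap between them was 1293 bp, and 26 of the 1101 MyoD regions found in 3 of 3 ASC and 0 of 3 QSC libraries (2.36%) had another such region within that distance. Of the 964 genes given such a region, 116 had at least 2 (12.0%), Fgfr4 among them.

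Met (ENSMUSG00000009376, chromosome 6), the receptor of HGF, had 1 MyoD region, in intron 4 of 21 (17515691 to 17516797). It scored 252, 218 and 149 in ASC MyoD replicates 1, 2 and 3 (mean 206 ± 52.8, SD, n = 3), well above the lowest listed score in every replicate. Its center lay 52.3 kb downstream of the RefSeq start, near the middle of a gene of 111 kb. The centers of the peaks of the 3 libraries fell within 189 bp of each other, against 104 and 186 bp for the Fgfr4 regions and a median of 110 bp over the 1101 regions in 3 of 3 libraries.

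Fgfr1 (ENSMUSG00000031565, chromosome 8), the FGF receptor that MuSCs share with many other cells, had 1 peak under its own name, in intron 2 of 3 of an annotated transcript (25525491 to 25526129). It was called in ASC MyoD replicate 3 alone, with a score of 53.6 that ranked 1949 of 2296 in its list. A further MyoD region lay 36.1 kb into the annotated span of Fgfr1 but was listed under Gm16159 (ENSMUSG00000086134), a gene inside that span, as a promoter peak within 1 kb (25554358 to 25555426). It scored 136, 61.2 and 126 in ASC MyoD replicates 1, 2 and 3 (mean 108 ± 40.7, SD, n = 3) and had no QSC peak. This region is outside the naming rule and was chosen after its values were seen. The count for Fgfr1 thus depends on which gene name a peak in its span was given.

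**Figure D2:**
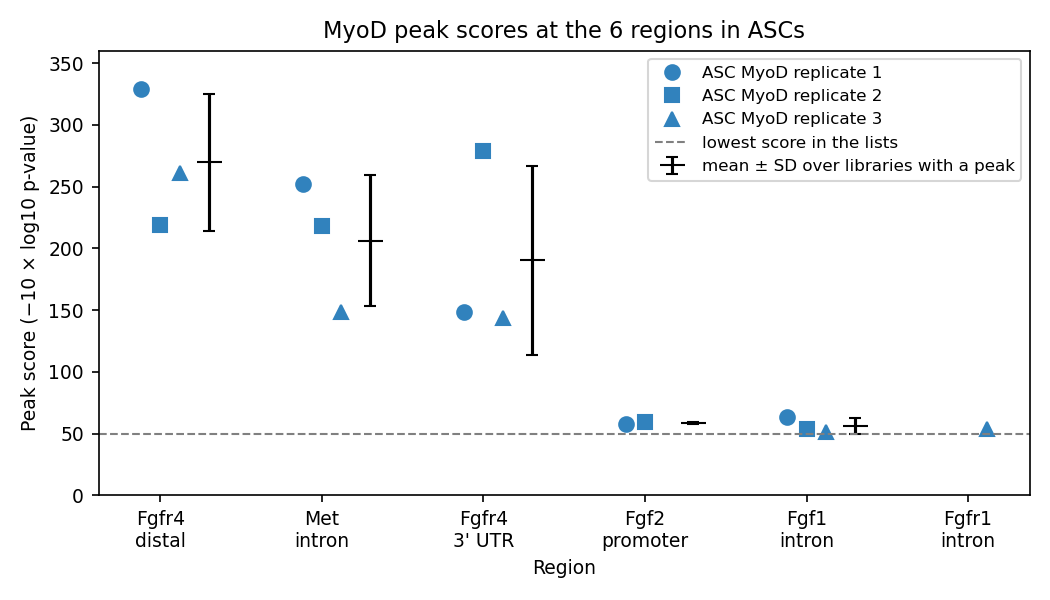
Score of each MyoD peak (minus 10 times log10 p-value, y axis) at the 6 regions (x axis) in ASC MyoD replicates 1 to 3, with the mean and SD over the libraries that had a peak. The Fgfr4 and Met regions lie between 144 and 329, and the Fgf2, Fgf1 and Fgfr1 regions between 51.0 and 63.1, near the dashed line at the lowest listed score of 50.0.

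Among the ligands, Fgf1 (ENSMUSG00000036585, chromosome 18) and Fgf2 (ENSMUSG00000037225, chromosome 3), the acidic and basic FGF that drive MuSC proliferation in culture, had low-scoring regions. The Fgf1 region (38844294 to 38845167) scored 63.1, 53.4 and 51.0 in ASC MyoD replicates 1, 2 and 3 (mean 55.8 ± 6.44, SD, n = 3). The peak was thus recovered in every ASC MyoD library but ranked only 1813 of 2652, 2003 of 2262 and 2191 of 2296 in the lists. The gene part given for it is intron 1 of 5 of a transcript of another gene (ENSMUST00000148850, ENSMUSG00000036452), and the region overlaps the RefSeq spans of both Fgf1 and Arhgap26. The Fgf2 region (37378414 to 37378917) scored 57.8 in replicate 1 and 59.2 in replicate 2 and was missing from replicate 3. It was the only member region annotated as a promoter (1 to 2 kb), but it lay 30.0 kb downstream of the RefSeq start, inside the Fgf2 span, and the start behind that annotation was not examined. Peaks at these ligands were narrow as well, at 370 to 874 bp, against 894 to 1307 bp at Fgfr4 and Met.

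The remaining ligands had no peak. Fgf6, a muscle-restricted FGF, had its nearest peak 84.5 kb away, in ASC MyoD replicate 2, under the name Platr31. The nearest peak to Fgf7, a ligand made mainly by mesenchymal cells, lay 83.1 kb away in QSC MyoD replicate 3 (listed under Dtwd1, score 54.4). Hgf had no peak within 100 kb, and its nearest lay 134 kb away in ASC MyoD replicate 1. The inhibitors had no peak either: the nearest peak of any library lay 148 kb from Spry1 (ASC MyoG replicate 3) and 187 kb from Spry2 (ASC MyoD replicate 2). Such distances are not given here for other genes, so they cannot be called long or short. The nearest peaks to these 5 genes scored 53.5 to 59.98, all near the lowest listed score.

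**Figure D3:**
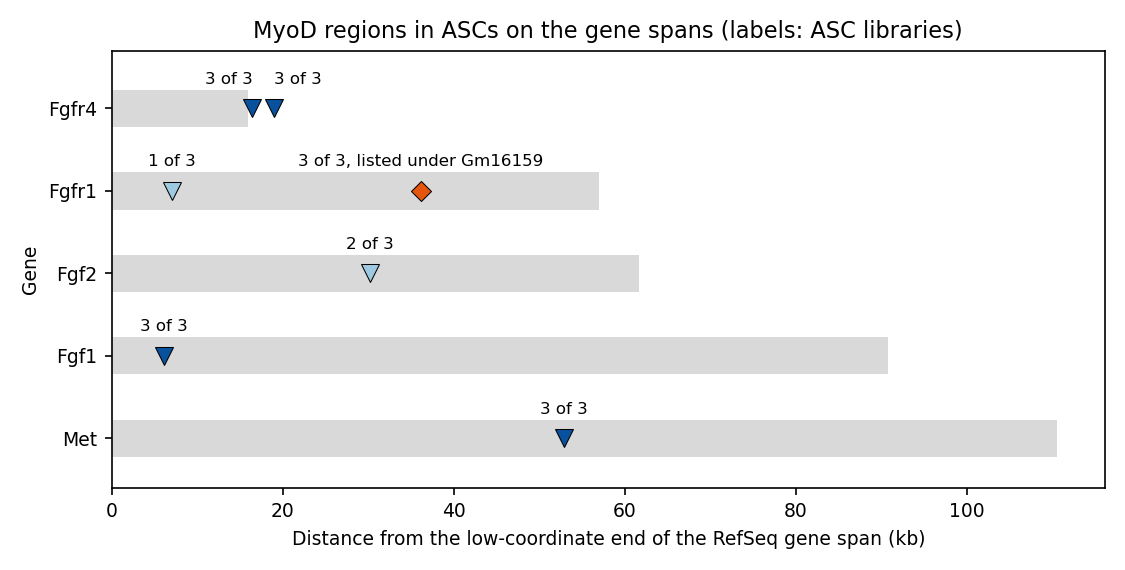
Position of the ASC MyoD regions (triangles, dark for 3 of 3 libraries and light for fewer; labels give the ASC libraries) on the annotated spans (grey bars) of the 5 genes, in kb from the low-coordinate end of each span. The Fgfr4 regions lie at and past the end of the gene, the Met region near the middle, and the diamond in Fgfr1 is the region listed under Gm16159.

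The members divided by score when set beside the other MyoD regions. Ranked by mean score among the 1101 regions in 3 of 3 ASC and 0 of 3 QSC libraries (median 98.5), the second Fgfr4 region was 44th, Met 103rd, the first Fgfr4 region 125th and Fgf1 1090th. In terms of percentile within each list, averaged over the libraries, they stood at 97.6%, 94.2%, 91.7% and 15.9%, where the median of the 1101 regions was 68.1%. The 5 ASC-specific member regions had a median of 91.7%, against 55.6% for all 1976 ASC-specific MyoD regions, but they ranged from 15.9% to 97.6%. The regions in 3 of 3 libraries were 23.8% promoter, 35.2% intronic, 35.8% distal intergenic and 3.00% 3′ UTR over the genome, and 0 of the 4 at members were at promoters. Scores depend on the depth of a library, so they order the calls within a list and do not measure occupancy.

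**Figure D4:**
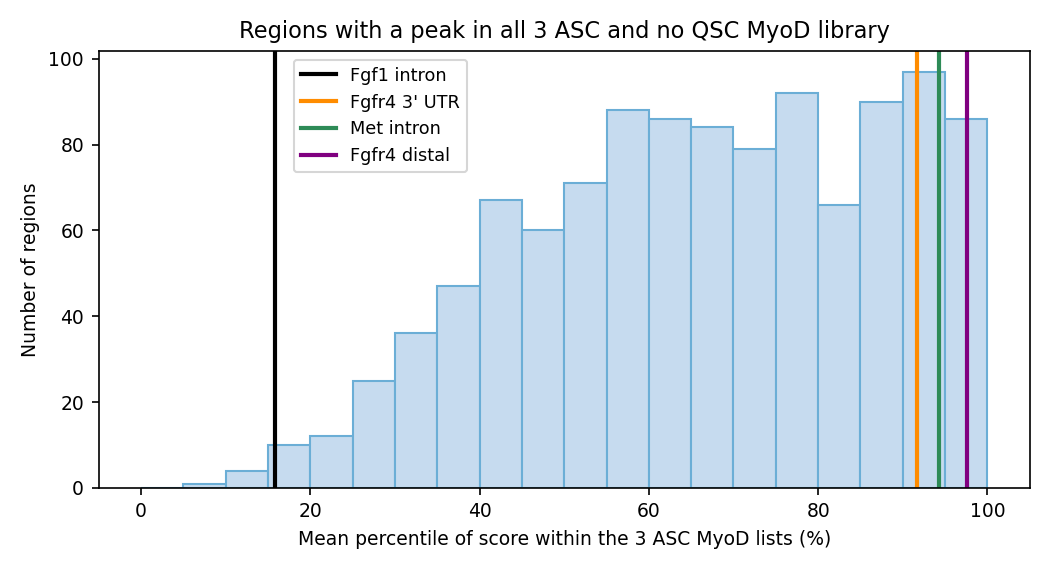
Histogram of the mean within-list percentile of score (x axis, 0 is lowest and 100 highest) for the 1101 MyoD regions with a peak in all 3 ASC and no QSC libraries (y axis, number of regions). Vertical lines mark the member regions: Fgf1 at 15.9% in the sparse lower tail, the others between 91.7% and 97.6%.

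With MyoG, no member region was found in ASCs. Thus 5 of the 6 member regions had peaks in at least 2 ASC MyoD and 0 ASC MyoG libraries, against 33.1% of all 5779 ASC regions. They are the same 5 regions called ASC-specific for MyoD above, so this count is not a separate result. The nearest ASC MyoG peak lay 112 kb from the Fgf2 region, 545 kb from Met, 1083 kb from Fgfr1, 1744 kb from Fgf1 and 6148 kb from the first Fgfr4 region. The nearest QSC MyoD peak lay 996 kb from the Met region and farther from all the others. At 112 kb, the ASC MyoG peak near Fgf2 was the closest peak of the other 3 groups to any member region.

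The pattern of libraries at the members was a common one. Fgf1, Fgfr4 and Met had peaks in the 3 ASC MyoD libraries and in no other library, a pattern shared by 874 other genes of the 4384 named in the lists (19.9%) for each of them. On the pathway list described next, Cd44, Fgf11, Fgfr2 and Gpc1 had it too. The pattern of Fgf2 (ASC MyoD replicates 1 and 2) was that of 219 other genes (5.00%), including Akt2, Fgf9 and Sdc1. Patterns were compared by gene name, so the peaks of a gene may lie at separate places. The Fgf9 peaks of replicates 1 and 2 were separate regions, and no single region of Fgfr2 had a peak in all 3 libraries.

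A list of 87 further genes of the pathway was examined in the same way, by role. ASC-specific MyoD regions were given to 8 of them (9.20%, against the 5.92% of protein-coding genes above) and ASC-specific MyoG regions to 0 (against 0.187%), and 65 of the 87 had no peak in any library. Receptors and co-receptors held 4 of the 8 (of 12 genes), kinases 2 of 20, the FGF family and other ligands 1 of 19 and transcription factors 1 of 5. The ASC-specific regions of these receptors and co-receptors (Cd44, Gpc1, Sdc1 and Fgfr2) all lay outside the RefSeq span of their gene, 24.0 to 2089 kb from it. Those of Map2k2, Fgf11 and Akt2 overlapped the span of their gene, and that of Etv1 did not. The 12 adaptors, the 10 other inhibitors and the 9 genes of HGF activation held 0. Among the inhibitors, which include Spry4, Spred1, Spred2 and the phosphatase Dusp6, 0 of 10 had a peak in any library. With 10.7% of protein-coding genes given an ASC MyoD peak and 5.11% a peak of the other 3 groups, a count of 0 among so few genes sets them apart from nothing.

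The highest mean scores among the 8 genes were those of the co-receptors Cd44 and Gpc1. A distal intergenic region given to Cd44, a hyaluronan receptor of which some forms assist Met (chromosome 2, 102936474 to 102937669, 34.8 kb from the gene), scored 258, 188 and 191 in ASC MyoD replicates 1, 2 and 3 (mean 212 ± 39.8, SD, n = 3). One given to Gpc1, a heparan sulfate proteoglycan of the cell surface (chromosome 1, 92786775 to 92788010, 43.6 kb from the gene), scored 175, 224 and 147 (mean 182 ± 39.2). Both fall in the score range of Fgfr4 and Met. Sdc1, another heparan sulfate proteoglycan, had a distal region in replicates 1 and 2 with scores of 78.2 and 53.5 (mean 65.9), the lowest mean of the 8. The region of the FGF receptor Fgfr2 (chromosome 7, 132355862 to 132356883), found in replicates 1 and 2 with scores of 87.4 and 94.5, was annotated to an intron of Fgfr2 but lay 2089 kb from its RefSeq span, and the other 4 peaks given to Fgfr2 lay 656 to 1424 kb from it.

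Map2k2, which encodes a kinase downstream of Ras, had a promoter region in 3 of 3 ASC MyoD libraries (chromosome 10, 81119244 to 81120406) with scores of 108, 54.8 and 70.6, centered 13.9 kb downstream of the RefSeq start. A QSC MyoG replicate 1 peak (81119488 to 81119963) lay inside it, so MyoD in ASCs was not the only call there. The region given to Fgf11 (chromosome 11, 69795112 to 69796503), whose product belongs to the intracellular FGFs, scored 73.8, 73.8 and 60.7, and it covered the promoter window of Chrnb1, a subunit of the muscle acetylcholine receptor, printed above. Its center lay 6.47 kb downstream of the nearest Fgf11 start. Akt2, a kinase of the PI3K pathway, had a promoter region in replicates 1 and 2 (chromosome 7, 27606698 to 27608460, scores 72.5 and 67.1). The replicate 1 peak covered the promoter window printed above, while the replicate 2 peak began at 27607466, past the end of that window. Etv1, a transcription factor that FGF signaling induces, had a region 2.42 kb upstream of its start in replicates 1 and 3 (chromosome 12, 38777241 to 38778079, scores 77.6 and 94.0), and separate peaks farther away in QSC MyoD replicate 3 and QSC MyoG replicate 2.

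**Figure D5:**
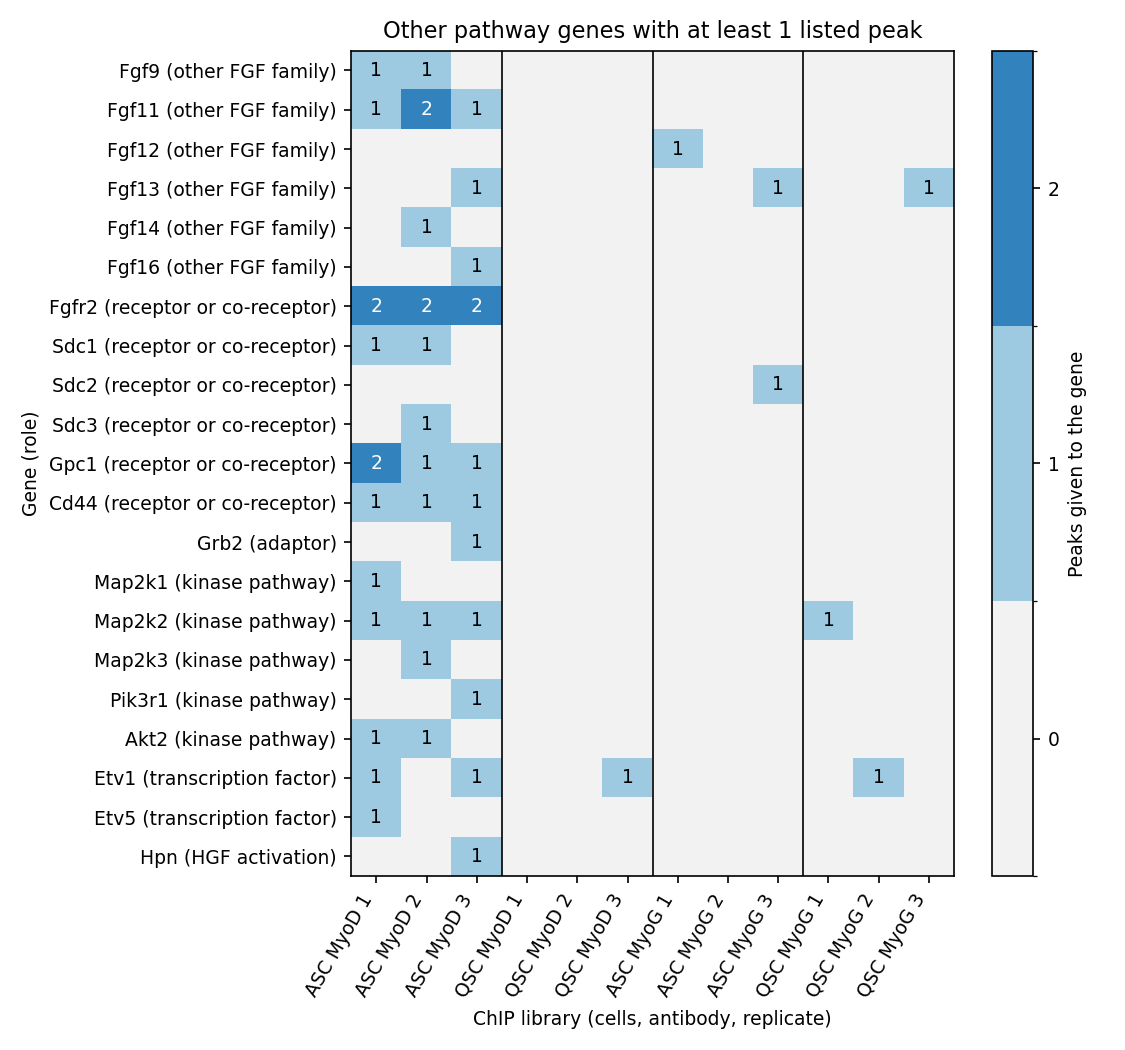
Number of listed peaks given to further pathway genes that had at least 1 peak (rows, with their role) in each of the 12 ChIP libraries (columns). Most entries lie in the ASC MyoD columns, and the other 3 groups together hold 7 peaks.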

How the data were processed

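MyoD and MyoG ChIP-seq peak lists of 12 libraries were analysed, and the 2 input libraries were not used. Chromatin was fixed in 1% formaldehyde and sheared to about 500 bp. Per the labels, the submitters' processing notes name BWA 0.7.5, MACS, deepTools 3.5.0 and mm10; the roles of these tools, the MACS version, the use of input and any filter are not given in the sources used here. The authors called peaks in each library separately and deposited each peak's position (bp), gene, gene part and score (minus 10 times the log10 p-value). Groups and replicate numbers came from the sample titles.

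Peaks of an antibody were joined when they overlapped by at least 1 bp (Python 3.11.15, pandas 2.3.3). Regions were compared by presence of a peak per library with exact two-sided permutation tests, with Benjamini-Hochberg adjustment over all regions of the antibody. All 10 symbols matched RefSeq GRCm38.p6, as did 4099 of the 4384 gene names in the lists. Peak sequences could not be read without a genome, so E-boxes were counted in promoter windows instead. The rule that joins peaks and calls regions was run on simulated lists of well-separated regions, which checks the code and not the peak calling. One gene of the pathway list is not reported here by name, though the counts include it.

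Every member and each of its regions is named, and of the pathway list every gene with an ASC-specific region. Members and lists were chosen with earlier results of these data known. Alternatives were a score of at least 80, 50% mutual overlap, gaps up to 500 bp, 3 or 1 libraries for a call, no distal peaks, 1 library of the other state allowed, promoters within 1 kb, replicate pairing, and leaving out each library. Assignment by RefSeq span was added after seeing the data. Nothing in the labels says whether replicates came from separate animals, although the study describes them as biological replicates. The p-values thus apply to these libraries. They use only the presence of a peak in each and do not measure the spread of scores.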

Additional observations from a re-analysis of the deposited data

Results flagged for a closer look

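A MyoD region inside the Fgfr1 span, listed under Gm16159, was singled out because it lies in data that the naming rule does not use and the QSC libraries had no peak there. Its mean score was 108 over the 3 ASC MyoD libraries.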

How the results depend on the processing

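Read depth is unknown, so a missing peak is not an absent site. At a score of at least 80, ASC-specific MyoD regions of the members numbered 3 (5 as listed), the genes 2 (Fgfr4 and Met; 4 as listed), promoter regions 0 (1 as listed) and pathway genes 3 (8 as listed), and the difference in share of libraries was 0 for Fgf1, Fgf2 and Fgfr1. Pathway genes numbered 4 with 3 libraries required, 20 with 1 library, and 5 without distal peaks. The genes lost without distal peaks were Cd44, Gpc1 and Sdc1, all of the receptor and co-receptor group. The promoter count was 0 with 3 libraries required and 0 within 1 kb. Leaving out single libraries gave 4 to 8 pathway genes (4 without ASC MyoD replicate 1, 5 without replicate 2), 0 to 1 promoter regions (0 without replicate 1 or 2), 4 to 5 regions and 3 to 4 genes. The cause was not tested, apart from stricter rules keeping fewer peaks. By RefSeq span, 5 genes had an ASC-specific region, with Fgfr1 added. The regions also numbered 5, since the second Fgfr4 region, the member region of highest mean score, lies past the gene and was not counted. The counts of 0 for QSC MyoD, ASC MyoG and QSC MyoG stayed at 0 in all alternatives run, since these libraries held no member peak.

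With replicate numbers as pairs, the difference in share was the same by arithmetic (1 for both Fgfr4 regions, Met and Fgf1, exact sign-flip p-value 0.25, the smallest 3 pairs allow; 0.667 for Fgf2 and 0.333 for Fgfr1, exact sign-flip p-values 0.5 and 1). Same-numbered libraries deviated together in peak number in 3 of the 6 pairs of groups (correlation over 0.1), among them ASC with QSC MyoD (0.513) and ASC MyoD with ASC MyoG (0.999), and the lowest correlation was -0.986. With 3 libraries a group and not every pair over 0.1, the numbers were not taken as pairs, although correlations over so few libraries cannot decide this. Saline was injected on the side opposite to the injury, so same-numbered ASC and QSC libraries may share animals. Whether they do is not given in the sources used here.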
